A study of Mus musculus with 12 samples.

Results

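Iron handling was followed through 8 genes: the ferritin subunits Fth1 and Ftl1, the transferrin receptor Tfrc, the metal transporters Slc11a1 and Slc11a2, the iron exporter Slc40a1, the heme-degrading enzyme Hmox1 and the siderophore-binding protein Lcn2. They were chosen by name as 8 of the 23997 genes listed in each library, and all 8 had a value in the deposited data and passed the filter on low values. RNA-seq measured bone marrow-derived macrophages (BMDMs) from C57BL/6 mice in 12 libraries, with 3 in each of 4 groups: untreated WT cells, untreated Pim1-/- cells, and WT and Pim1-/- cells treated with LPS, a bacterial cell wall component that activates TLR4, at 100 ng/ml for 4 h. The study asked how loss of Pim1, a serine/threonine kinase, alters the response of macrophages to TLR stimulation. All groups came from male mice aged 8 to 10 weeks. Marrow cells were held for 1 d in medium with 20% serum, and the non-adherent cells were grown for 7 d with recombinant human M-CSF at 10 ng/ml. The knockout mice were made with CRISPR/Cas9 by deleting exons I to V of Pim1 throughout the animal, so the cells carried the deletion while they formed macrophages as well as during LPS treatment. The labels number the libraries of a group as replicates but do not say whether they came from separate mice or cultures, so the p-values below measure only the spread between these libraries.

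Macrophages take up iron as transferrin-bound iron, as free metal and from engulfed red cells, keep it in ferritin and return it to the blood. Uptake at the surface runs through the transferrin receptor, and iron leaves the endosome or phagosome through the Slc11a transporters. Ferritin is a shell of heavy and light chains that stores iron in the cytosol, and ferroportin, the product of Slc40a1, is the known cellular iron exporter. Iron regulatory proteins bind a hairpin in several of these mRNAs, the iron-responsive element, when iron is scarce. A bound element near the start of an mRNA blocks translation, and bound elements behind the coding region protect the mRNA from decay. During infection macrophages withhold iron from microbes, a response in which ferroportin and lipocalin 2 take part.

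The iron-responsive elements are shown because they divide the 8 genes by the side of the coding region on which the hairpin lies. A search of the UTRs of GENCODE M21 (GRCm38) looked for the loop CAGTGN, with N being A, C or T, on top of 5 paired bases, an unpaired C and a lower stem with at least 4 of 6 bases paired. The sequences are given 5′ to 3′ on the strand of the gene, with the 6 loop bases in capitals.
Fth1, 5′ UTR in exon 1, chr19:9982732-9982760, plus strand: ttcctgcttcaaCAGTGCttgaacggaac
Ftl1, 5′ UTR in exon 1, chr7:45459779-45459807, minus strand: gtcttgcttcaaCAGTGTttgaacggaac
Slc40a1, 5′ UTR in exon 1, chr1:45925465-45925493, minus strand: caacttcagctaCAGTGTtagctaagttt
Tfrc, 3′ UTR in exon 19, chr16:32631219-32631247, plus strand: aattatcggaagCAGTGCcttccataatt
Tfrc, 3′ UTR in exon 19, chr16:32631598-32631626, plus strand: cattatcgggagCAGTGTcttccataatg
Tfrc, 3′ UTR in exon 19, chr16:32631663-32631691, plus strand: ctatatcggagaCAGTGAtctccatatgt
Tfrc, 3′ UTR in exon 19, chr16:32631710-32631738, plus strand: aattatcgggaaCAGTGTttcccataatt
Slc11a2, 3′ UTR in exon 16, chr15:100395153-100395180, minus strand: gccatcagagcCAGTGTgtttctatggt
The ferritin chains and the exporter carried a single match before the coding region, and Tfrc carried 4 matches behind it. The Slc11a2 match needed 1 unpaired base in the upper stem, with a lower stem of 5 positions. It lay only in the transcript Slc11a2-205, 1 of 6 protein-coding transcripts, and gene-level values do not separate these. No match was found in the UTRs of Slc11a1, Hmox1 or Lcn2. In all, 5 of 19178 genes (0.0261%) held the plain pattern in a 5′ UTR and 11 of 19259 (0.0571%) in a 3′ UTR, and with the unpaired base these shares were 0.0261% and 0.0727%. A match is a description of the letters and says nothing on binding in these cells.

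Values are FPKM, fragment counts scaled to transcript length and library size, so that levels can be set between genes, and differences are on the log2(FPKM + 1) scale. Calls below come from limma and needed a difference above 2-fold, a p under 0.05 and an FDR under 0.1. Pim1 averaged 22.9 ± 1.80 FPKM (SD, n = 3) in untreated WT and 8.73 ± 0.75 in untreated Pim1-/- cells, and 645.4 ± 17.8 and 218.9 ± 15.6 after LPS. The targeted gene was thus lower in every Pim1-/- library than in every WT library of the same treatment, although the deposited gene-level values do not separate the deleted from the remaining exons. The summed FPKM of a library was 452511 to 489710 untreated and 713307 to 849323 after LPS, and therefore the scale of the LPS comparisons depends on how libraries are equated. In genes with 1 transcript, low values were read as multiples of the value of 1 fragment. Of these values, 65.0% to 74.6% per library lay within 0.05 of a whole multiple. Read in that way, a fragment count was divided by 37900000 to 46100000 in untreated and by 21100000 to 32400000 in LPS-treated libraries. Pearson's r between libraries of a group, across genes, which are not independent replicates, was at least 0.996. All 10 macrophage markers on the list were at 1 FPKM or more in the mean of every group. Their summed level was 27953 to 30001 FPKM in untreated WT, 14412 to 15331 in untreated Pim1-/-, 30863 to 31362 in LPS-treated WT and 15949 to 17814 in LPS-treated Pim1-/- cells, and 0 of 10 had a higher mean in Pim1-/- cells under either treatment. Most of this sum was Lyz2. Without it the other 9 summed to 2509 to 2594 in untreated WT, 1529 to 1680.2 in untreated Pim1-/-, 4346 to 4446 in LPS-treated WT and 3218 to 3344 in LPS-treated Pim1-/- cells. Relative to WT, the untreated Pim1-/- mean was least reduced for Cd14, at 167.5 FPKM in WT and 160.3 in Pim1-/- cells, and most for Siglec1, at 8.44 and 1.40. In bulk RNA fewer cells of a type and less RNA per cell cannot be told apart. The part of this shift in the results below was not tested.

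**Figure D1:**
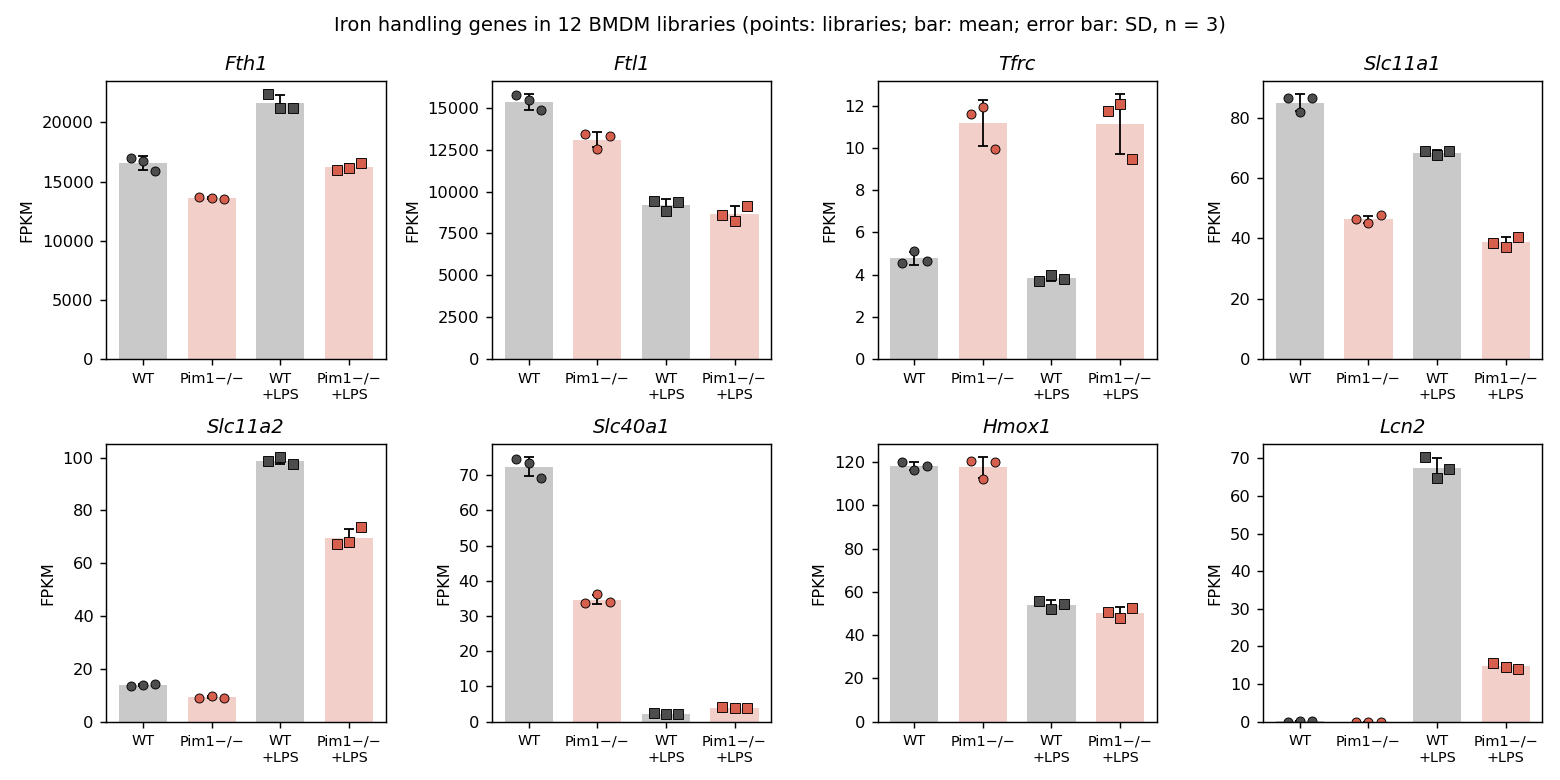
FPKM (y axis, linear from 0, a separate scale per panel) of the 8 iron handling genes in untreated and LPS-treated WT (grey) and Pim1-/- (red) BMDMs. Points are libraries, bars are means and error bars are SD (n = 3). Slc40a1 stands at 69.3 to 74.6 FPKM in untreated WT cells and under 5 FPKM in both LPS groups, while Lcn2 is near 0 in both untreated groups.

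Storage was the most abundant function in the set. Fth1, the heavy chain with ferroxidase activity (chr19:9980598-9985098), ranked the 1st or 2nd gene by FPKM in every library, and both chains together made 6.65% ± 0.12 (SD, n = 3) of the summed FPKM in untreated WT, 5.79% ± 0.12 in untreated Pim1-/-, 3.66% ± 0.09 in LPS-treated WT and 3.41% ± 0.17 in LPS-treated Pim1-/- cells. Fth1 stood at 17007.5, 16750.7 and 15930.5 FPKM in untreated WT libraries and at 13684.8, 13642.2 and 13513.4 in untreated Pim1-/- libraries. After LPS it was at 22385.3, 21223.9 and 21265.0 in WT and at 16007.7, 16165.0 and 16553.6 in Pim1-/- cells. All Pim1-/- libraries lay below all WT libraries of the same treatment, and the LPS-treated Pim1-/- range overlapped that of untreated WT cells. The genotype difference was -0.28 ± 0.05 (SE) untreated (limma adjusted p = 6.5e-05) and -0.41 ± 0.05 after LPS (limma adjusted p = 1.1e-06), both under the 2-fold threshold, and under quantile normalization it was 0.22 and 0.00, so its direction depends on the scaling. Quantile normalization gives genes of equal rank an equal value, and Fth1 held the 2nd rank in all libraries of 3 groups. The LPS difference of Fth1 was 0.38 in WT (limma adjusted p = 1.3e-06) and 0.25 in Pim1-/- cells (limma adjusted p = 0.00013), and it turned to -0.43 and -0.41 when each library was rescaled to a sum of 1000000, where the median of all genes was -0.71 and -0.62.

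Ftl1, the light chain that aids mineral formation inside the shell (chr7:45457944-45459884), moved apart from its partner after LPS. It was at 15757.5, 15439.6 and 14850.5 FPKM in untreated WT and 13425.6, 12565.1 and 13307.1 in untreated Pim1-/- libraries. After LPS it was at 9438.9, 8818.8 and 9376.2 in WT and 8610.0, 8257.6 and 9150.9 in Pim1-/- libraries. The LPS-treated libraries of each genotype lay below all its untreated libraries, and the genotypes overlapped after LPS but not before. LPS shifted Ftl1 by -0.74 ± 0.05 in WT (limma adjusted p = 1.8e-09) and -0.60 ± 0.05 in Pim1-/- cells (limma adjusted p = 3.4e-08), short of 2-fold here but past it under quantile normalization (-1.11 and -1.24) and on the sum of 1000000 (-1.55 and -1.26). The genotype difference was -0.23 untreated (limma adjusted p = 0.00117) and -0.09 after LPS (95% interval -0.20 to 0.03, limma adjusted p = 0.146), with the opposite sign under quantile normalization (0.16 and 0.034) and, after LPS, on the sum of 1000000 (0.12). Ftl1 values are uncertain because 60.4% of the 100-base windows of its transcript also occur in 4 other annotated genes, pseudogenes among them, that have no row in the deposited tables, and how reads with several matches were counted is not given in the sources used here. For Fth1 this share was 0.964%.

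The ratio of the chains does not depend on library scaling by a constant. Fth1 to Ftl1 was 1.08 ± 0.01 (SD, n = 3) in untreated WT, 1.04 ± 0.04 in untreated Pim1-/-, 2.35 ± 0.07 in LPS-treated WT and 1.88 ± 0.08 in LPS-treated Pim1-/- cells. The untreated genotypes overlapped in this ratio, whereas after LPS the WT libraries at 2.27 to 2.41 lay above the Pim1-/- libraries at 1.81 to 1.96. Heavy chain mRNA therefore exceeded light chain mRNA in every LPS-treated library by a wider margin than in any untreated one. Under quantile normalization, which does not keep ratios, the log2 ratio after LPS was 1.35 in WT and 1.32 in Pim1-/- cells, against 1.23 and 0.91 as deposited.

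**Figure D2:**
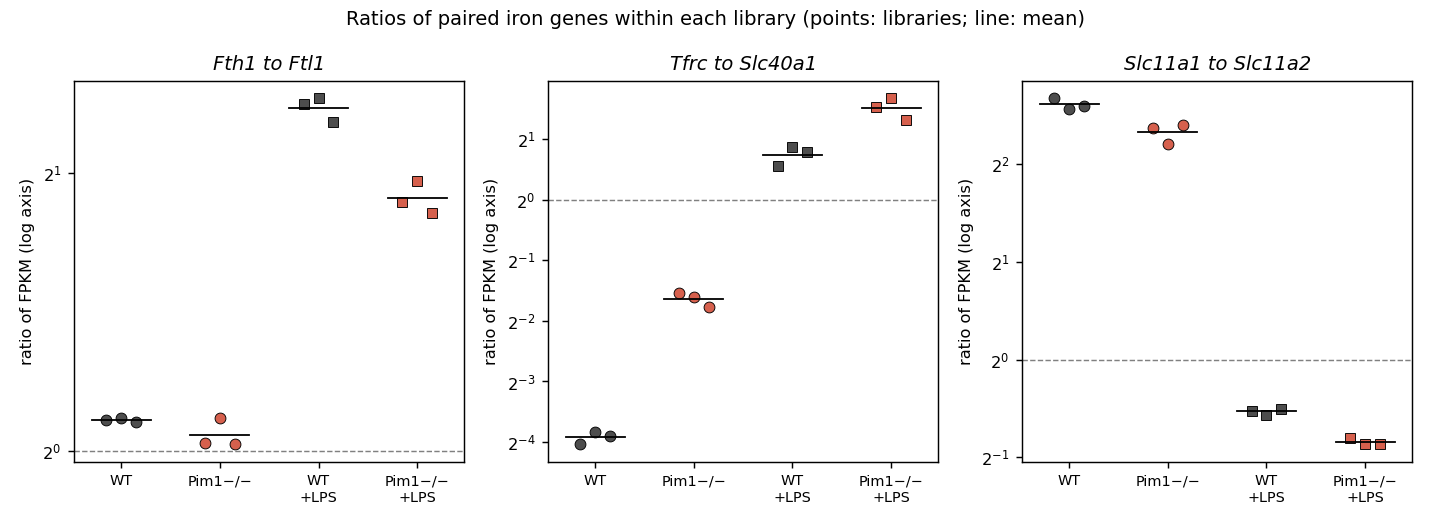
Ratio of FPKM within each library (y axis, log scale) for Fth1 to Ftl1, Tfrc to Slc40a1 and Slc11a1 to Slc11a2 in the 4 groups. Points are libraries, horizontal lines are means (n = 3) and the dashed line marks equal FPKM. The Slc11a1 to Slc11a2 ratio crosses the dashed line with LPS, from at least 4.61 in untreated libraries to at most 0.71 in LPS-treated libraries.

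Transferrin-bound iron enters through Tfrc (chr16:32608920-32632794), the single member whose level was higher in Pim1-/- cells under both treatments. Tfrc was at 4.54, 5.13 and 4.64 FPKM in untreated WT and at 11.6, 11.9 and 9.93 in untreated Pim1-/- libraries. After LPS it was at 3.70, 3.99 and 3.80 in WT and at 11.8, 12.1 and 9.48 in Pim1-/- libraries. The genotypes did not overlap, and the 2 Pim1-/- groups overlapped each other. Tfrc rose with loss of Pim1 by 1.07 ± 0.08 untreated (limma adjusted p = 1.3e-08) and by 1.32 ± 0.08 after LPS (limma adjusted p = 9.1e-10), a ratio of mean FPKM of 2.34 and 2.90. LPS shifted it by -0.26 in WT (limma adjusted p = 0.00863) and by -0.01 in Pim1-/- cells (95% interval -0.18 to 0.17, limma adjusted p = 0.921). These responses differed by 0.25 (95% interval -0.00 to 0.50, limma adjusted p = 0.0776), a difference that was -0.079 under quantile normalization. The size of the LPS shifts depends on the scaling. When each library was rescaled to the same sum, mean Tfrc fell from 9.94 to 4.55 in WT and from 24.2 to 15.2 in Pim1-/- cells.

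Tfrc is high in dividing cells and in red cell precursors, so both marker lists were read beside it. The 10 markers of dividing cells summed to 125.7 to 138.8 FPKM in untreated WT and 800.7 to 890.7 in untreated Pim1-/- libraries, with 10 of 10 higher in Pim1-/- cells. After LPS they summed to 349.5 to 353.4 in WT and 677.5 to 764.3 in Pim1-/- libraries, with 9 of 10 higher. Pcna made up most of these sums. The other 9 summed to 22.2 to 26.1 in untreated WT, 405.5 to 420.2 in untreated Pim1-/-, 37.5 to 39.5 in LPS-treated WT and 179.2 to 192.9 in LPS-treated Pim1-/- libraries. Most of the LPS-treated WT sum of these 9 was Mki67, at a mean of 28.6 FPKM against 26.2 in LPS-treated Pim1-/- cells. After LPS 7 of 10 markers had a lower mean in WT and 9 of 10 in Pim1-/- cells, where Tfrc averaged 11.2 FPKM untreated and 11.1 after LPS. These means are as deposited. With each library rescaled to the same sum, Tfrc in Pim1-/- cells averaged 24.2 untreated and 15.2 after LPS. The change of Tfrc with LPS in Pim1-/- cells thus depends on the scaling. The part of the markers of dividing cells in the Tfrc result was not tested. The 10 erythroid markers summed to at most 0.393 FPKM in any library, with Hba-a1, Hbb-b1, Hbb-bs and Slc4a1 listed at 0 throughout.

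Slc11a1 (chr1:74375195-74386062) encodes NRAMP1, a metal transporter of the macrophage phagosome. It was at 86.6, 81.8 and 86.7 FPKM in untreated WT and 46.3, 45.1 and 47.6 in untreated Pim1-/- libraries. After LPS it was at 68.9, 67.7 and 69.0 in WT and 38.6, 37.3 and 40.6 in Pim1-/- libraries. None of the 4 groups overlapped, and Pim1-/- cells held 54.5% of the WT mean untreated and 56.6% after LPS. The genotype difference was -0.86 ± 0.04 untreated (limma adjusted p = 5.7e-11) and -0.81 ± 0.04 after LPS (limma adjusted p = 1.2e-10), short of 2-fold in both. LPS shifted Slc11a1 by -0.31 in WT (limma adjusted p = 4.4e-06) and -0.25 in Pim1-/- cells (limma adjusted p = 4.4e-05). In WT cells this was -1.29 under quantile normalization and -1.11 on the sum of 1000000.

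Slc11a2 (chr15:100387898-100425072) encodes DMT1, which carries ferrous iron out of endosomes, and it responded to LPS unlike its relative. Untreated WT libraries held 13.6, 13.8 and 14.3 FPKM and untreated Pim1-/- libraries 8.98, 9.80 and 9.03. LPS-treated WT libraries held 98.8, 100.2 and 97.6 FPKM and LPS-treated Pim1-/- libraries 67.3, 68.0 and 73.6. None of the groups overlapped. Slc11a2 rose with LPS by 2.74 ± 0.05 in WT (limma adjusted p = 1.3e-17) and 2.78 ± 0.05 in Pim1-/- cells (limma adjusted p = 1.5e-17), or 7.11 and 7.51 times by mean FPKM. The responses differed by 0.04 (95% interval -0.10 to 0.18, limma adjusted p = 0.64). Pim1-/- cells held 66.6% of the WT level untreated and 70.4% after LPS, a difference of -0.54 and -0.50 (limma adjusted p = 5e-08 and 9.3e-08) that stayed under the 2-fold threshold. The gene Gm5475 overlaps the span of Slc11a2 on the other strand, at 0 to 0.0448 FPKM, and whether counting used strand is not given in the sources used here.

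Slc11a1 to Slc11a2 stood at 6.12 ± 0.24 (SD, n = 3) in untreated WT and 5.01 ± 0.36 in untreated Pim1-/- cells, and at 0.693 ± 0.016 and 0.558 ± 0.014 after LPS. The more abundant of the Slc11a mRNAs was Slc11a1 in each untreated library and Slc11a2 in each LPS-treated library. The ratio was lower in every Pim1-/- library than in every WT library of the same treatment.

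Export is carried by Slc40a1, ferroportin (chr1:45908068-45926523), and the genotype difference of this gene had opposite signs before and after LPS. Untreated WT libraries held 74.6, 73.3 and 69.3 FPKM and untreated Pim1-/- libraries 33.8, 36.2 and 33.9. LPS-treated WT libraries held 2.53, 2.17 and 2.203 FPKM and LPS-treated Pim1-/- libraries 4.07, 3.80 and 3.81. WT was above Pim1-/- in every untreated library and below it in every LPS-treated library, with no overlap. Untreated, Slc40a1 fell with loss of Pim1 (difference -1.04 ± 0.05, limma adjusted p = 9e-11), to 47.9% of WT. This lies close to the 2-fold threshold, since on the sum of 1000000 the difference was -0.996 and was not called. After LPS it was higher in Pim1-/- cells by 0.57 ± 0.05 (limma adjusted p = 9.5e-08), under the 2-fold threshold, with mean FPKM 1.69 times the WT mean. The low LPS-treated values rested on an estimated 147 to 188 fragments per WT library and 306 to 418 per Pim1-/- library.

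LPS lowered Slc40a1 in both genotypes, by more in WT cells. The response was -4.48 in WT (limma adjusted p = 1.6e-19) and -2.86 in Pim1-/- cells (limma adjusted p = 5.2e-17), and WT cells kept 3.18% and Pim1-/- cells 11.2% of their untreated mean. The difference of the responses was 1.61 ± 0.07 (limma adjusted p = 1.3e-10). Of the 8 genes, Slc40a1 alone had a genotype difference of opposite sign in the 2 treatments in the values as deposited, and both of its signs held under each scaling tried.

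Setting uptake against export, the ratio of Tfrc to Slc40a1 was 0.0659 ± 0.0047 (SD, n = 3) in untreated WT, 0.322 ± 0.027 in untreated Pim1-/-, 1.67 ± 0.19 in LPS-treated WT and 2.85 ± 0.35 in LPS-treated Pim1-/- cells. The 4 groups did not overlap in this ratio. Exporter mRNA exceeded transferrin receptor mRNA in each untreated library, and the reverse held in each LPS-treated library. Pim1-/- libraries had the higher ratio under both treatments.

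**Figure D3:**
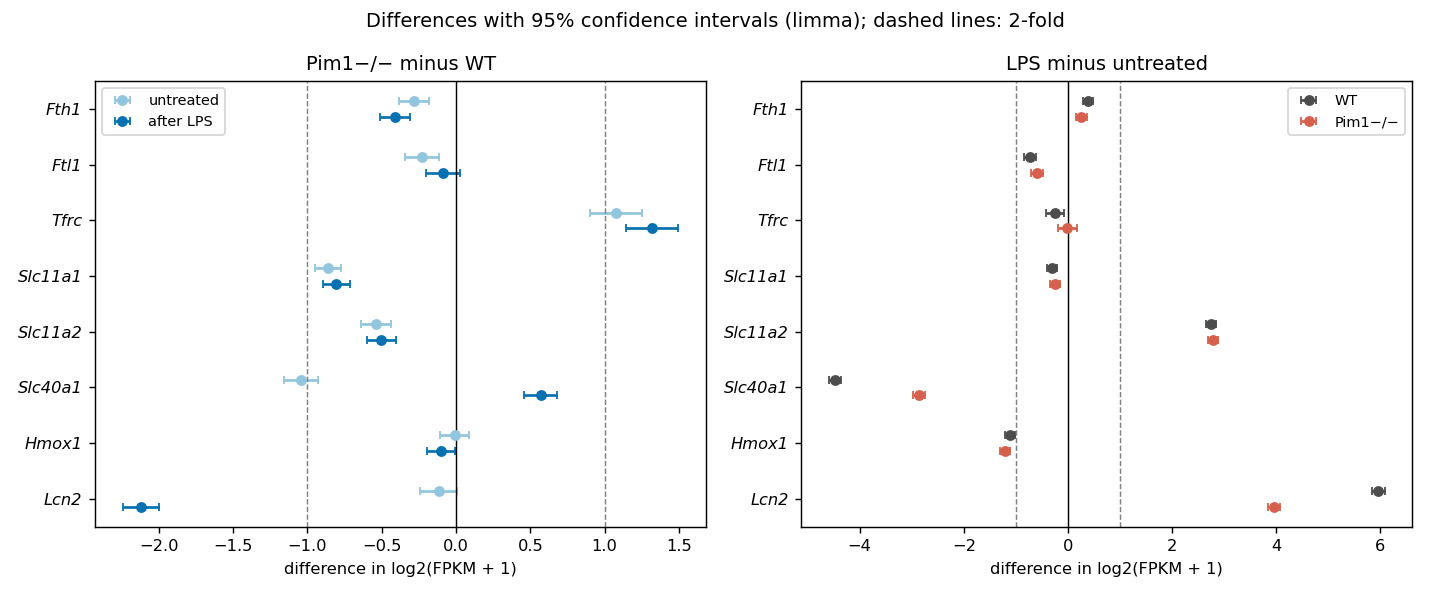
Differences of the 8 genes on the log2(FPKM + 1) scale (x axis) with 95% intervals from limma: Pim1-/- minus WT in the left panel, LPS-treated minus untreated in the right panel. Dashed lines mark 2-fold. Slc40a1 lies at -1.04 untreated and 0.57 after LPS in the left panel, and the Lcn2 interval after LPS runs from -2.24 to -2.00.

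Hmox1 (chr8:75093621-75100589) degrades heme from engulfed red cells and frees its iron. It was at 120.2, 116.2 and 118.4 FPKM in untreated WT and 120.5, 112.1 and 120.3 in untreated Pim1-/- libraries. After LPS it was at 55.9, 52.2 and 54.4 in WT and 50.8, 48.0 and 52.7 in Pim1-/- libraries. The genotypes overlapped under both treatments, and the treatments did not. Hmox1 fell with LPS in both genotypes, with a response of -1.11 in WT (limma adjusted p = 9.7e-13) and -1.20 in Pim1-/- cells (limma adjusted p = 5.1e-13). The untreated genotype difference was -0.01 with a 95% interval of -0.10 to 0.09 (limma adjusted p = 0.875), and after LPS it was -0.10 (95% interval -0.20 to -0.00, limma adjusted p = 0.0558), which became 0.13 under quantile normalization and 0.10 on the sum of 1000000. Hmox1 was the member with the smallest genotype difference untreated.

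Lcn2 (chr2:32384633-32388252) encodes lipocalin 2, a secreted protein that binds bacterial siderophores and so keeps iron from bacteria. Untreated WT libraries held 0.0402, 0.151 and 0.103 FPKM, and the untreated Pim1-/- libraries were listed at 0, 0 and 0.0341. LPS-treated WT libraries held 70.3, 64.6 and 67.0 FPKM and LPS-treated Pim1-/- libraries 15.7, 14.4 and 14.1. The untreated values rested on an estimated 4 fragments or fewer per library, so no fold is given for the LPS response, and the untreated genotype difference did not pass the thresholds at this depth (difference -0.12, 95% interval -0.24 to 0.00, limma adjusted p = 0.0737). With 0.1 FPKM in place of 1 added before the log2, that difference was -0.80 (limma adjusted p = 0.00057), which was not called because it was under 2-fold. After LPS all Pim1-/- libraries lay below all WT libraries. Lcn2 fell with loss of Pim1 to 21.9% of WT, a difference of -2.12 ± 0.06 (limma adjusted p = 6.1e-14). The LPS response was 5.96 in WT and 3.96 in Pim1-/- cells (limma adjusted p = 1.4e-20 and 2.4e-18), and the responses differed by -2.00 ± 0.08 (limma adjusted p = 2.7e-11). With 0.1 FPKM added the responses were 8.45 and 7.07 and the difference -1.38. With nothing added, the ratio of LPS-treated to untreated mean FPKM was larger in Pim1-/- than in WT cells. The size of the Lcn2 response, and the size and sign of its genotype difference, thus depend on the value added.

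Lcn2 is also stored in neutrophil granules, so markers of neutrophils and their precursors were read beside it. Of 12 listed, 11 were in the files and none reached 10 FPKM in the mean of a group. Their sum was 3.17 to 3.69 FPKM in untreated WT, 6.20 to 7.15 in untreated Pim1-/-, 7.26 to 9.91 in LPS-treated WT and 5.93 to 8.75 in LPS-treated Pim1-/- libraries. The LPS-treated genotypes overlapped in this sum, but without S100a8, the most abundant marker, they did not, at 4.11 to 6.07 in WT and 3.47 to 3.77 in Pim1-/- libraries. By mean, 4 of 11 markers were higher in Pim1-/- cells untreated and 7 of 11 after LPS. S100a9 averaged 0.345 FPKM untreated and 3.07 after LPS in WT, and 0.347 and 0.776 in Pim1-/- cells. Camp was listed at 0 in all untreated libraries and averaged 0.474 FPKM in LPS-treated WT and 0.269 in LPS-treated Pim1-/- cells. Mmp8 was higher in Pim1-/- cells, at 2.78 FPKM untreated and 2.36 after LPS, against 1.43 and 1.37 in WT. Means of the granule genes Mpo, Elane and Ltf were at most 0.0426 FPKM, and Retnlg was listed at 0 throughout. The part of these markers in the Lcn2 result was not tested.

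Untreated, 2 of the 8 genes were called between genotypes, Tfrc higher and Slc40a1 lower, against 7.78% of the 10581 genes tested (4.4% higher and 3.37% lower). After LPS 2 of 8 were called, Tfrc higher and Lcn2 lower, against 8.66% of all genes (3.51% higher and 5.15% lower). LPS against no treatment called 4 of 8 in WT cells (34.8% of all genes, 20.1% higher and 14.7% lower) and 4 of 8 in Pim1-/- cells (25% of all genes, 14.6% higher and 10.4% lower), with Slc11a2 and Lcn2 higher and Slc40a1 and Hmox1 lower in both. The response to LPS differed between genotypes in 2 of 8, Slc40a1 in the positive and Lcn2 in the negative direction, against 6.67% of all genes (2.24% and 4.43%). For Lcn2 this direction depends on the value added before the log2. The comparisons share groups, so their calls are not independent.

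At an FDR under 0.05 with no fold threshold the members called were 6, 6, 8, 7 and 2 of 8 in the same order, against 74.7%, 77.4%, 89.3%, 84.6% and 62.9% of all genes. The groups did not overlap in 7 of 8 genes between untreated genotypes (78.4% of all genes), 6 of 8 between LPS-treated genotypes (77.5%), 8 of 8 for LPS in WT (90.4%) and 7 of 8 for LPS in Pim1-/- cells (83.8%). For the difference in response, 2 of 8 lay below the share of all genes, and in the other comparisons the members' counts were near it. The median difference of the 8 genes was -0.26 untreated and -0.26 after LPS between genotypes, where all genes tested had -0.05 and -0.03. For LPS it was -0.28 in WT and -0.13 in Pim1-/- cells, against 0.00 and -0.01 over all genes. These medians depended on the scaling. Under quantile normalization the members had -0.07 and 0.02 between genotypes (all genes -0.04 and 0.01) and -0.59 and -0.53 for LPS (all genes -0.17 in both). On the sum of 1000000 they had -0.23 and -0.05 between genotypes (all genes -0.01 and 0.13) and -1.05 and -0.77 for LPS (all genes -0.71 and -0.62).

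Beyond the 8 members, 61 further genes of iron and heme metabolism were listed by role. All 61 were in the files and 50 passed the filter. The list includes genes of uptake and trafficking, export and the hepcidin axis, storage, sensing, heme turnover and iron-sulfur cluster assembly. Between untreated genotypes 2 of 50 were called, against 7.78% of all genes. Trf, transferrin, fell by 2.13 on the log2 scale with loss of Pim1, from a mean of 161.6 ± 2.1 FPKM (SD, n = 3) to 36.2 ± 1.5. Bola3, a factor of iron-sulfur cluster transfer, rose by 1.10, from 12.0 ± 1.3 to 26.8 ± 2.0 FPKM. The median of the 50 was -0.06, against -0.05 over all genes.

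After LPS 5 of 50 were called between genotypes, 1 higher and 4 lower in Pim1-/- cells, against 8.66% of all genes (3.51% higher and 5.15% lower), a share near the background. Cp, the ferroxidase ceruloplasmin that works with ferroportin in iron release, was at 79.9 to 85.6 FPKM in WT and 9.88 to 10.9 in Pim1-/- libraries, a difference of -2.89. Steap4, a metalloreductase, was at 6.25 to 7.63 FPKM in WT and 0.349 to 0.433 in Pim1-/- libraries, a difference of -2.50. Trf differed by -1.88 and Abcb10, a mitochondrial transporter needed for heme synthesis, by -1.05. The single gene that was higher was Hscb, a cochaperone of iron-sulfur cluster assembly, at 10.8 to 11.1 FPKM in Pim1-/- and 3.63 to 4.30 in WT libraries, a difference of 1.26. No gene of the sensing, storage or heme turnover roles was called here or between untreated genotypes. The median of the 50 genes was -0.01, against -0.03 over all genes.

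LPS called 20 of the 50 genes in WT cells, 10 higher and 10 lower, and 14 in Pim1-/- cells, 7 higher and 7 lower. In WT cells the largest differences were Cp (5.90), the zinc and iron importer Slc39a14 (3.36), Steap4 (2.97), Hscb (-2.91), the hypoxia regulator Hif1a (2.33) and the heme exporter Flvcr1, listed as Mfsd7b (-2.23). In Pim1-/- cells they were Cp (3.43), the mitochondrial iron importer Slc25a37 (2.53), Slc39a14 (2.08), Mfsd7b (-1.92), the endosomal ferrireductase Steap3 (-1.86) and Hif1a (1.53). In uptake and trafficking 8 of 14 genes were called in WT and 5 of 14 in Pim1-/- cells. The shares called, 20 and 14 of 50, stand beside 34.8% and 25% of all genes, and the medians were -0.28 and -0.05, against 0.00 and -0.01.

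The response to LPS differed between genotypes in 4 of 50, near the 6.67% of all genes. On the log2(FPKM + 1) scale Steap4 (-2.49), Cp (-2.47) and Slc39a14 (-1.28) responded less in Pim1-/- cells, and Hscb (1.77) fell less. These signs held under each scaling tried. With 0.1 FPKM added the Cp difference was -1.31 and that of Steap4 was -3.74, as both were under 1 FPKM in all untreated libraries. Of these genes Cp, like Slc40a1, belongs to export, where 1 of the 5 genes tested was called.

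**Figure D4:**
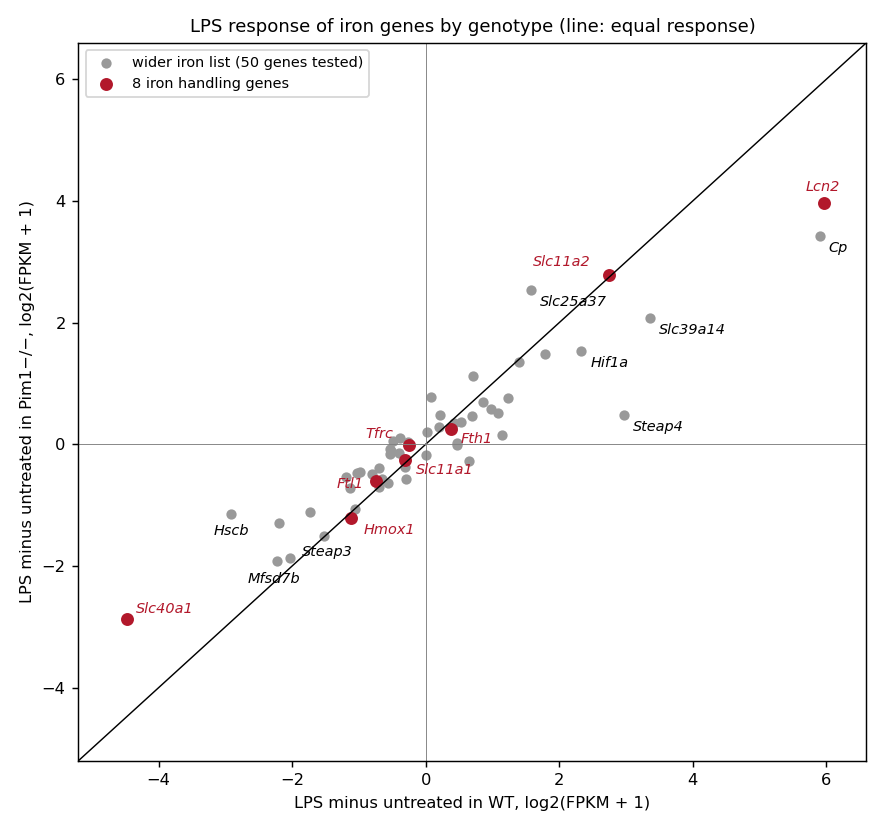
LPS response (LPS-treated minus untreated, log2(FPKM + 1)) in WT cells (x axis) and Pim1-/- cells (y axis) for the 8 iron handling genes (red) and the 50 tested genes of the wider iron list (grey). The diagonal marks an equal response. Slc11a2 sits on the diagonal at 2.74 and 2.78, while Slc40a1 (-4.48 and -2.86) and Lcn2 (5.96 and 3.96) lie away from it.

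For each member the tested genes with a similar pattern over the 12 libraries were sought by Pearson's r among the 5409 or 5410 other genes averaging 10 FPKM or more. These values are a description, since the libraries fall into 4 groups that any such pattern follows. The closest genes were Pisd and Npepps for Fth1 (r = 0.993 and 0.992), Plekho1 and Mid1ip1 for Ftl1 (0.995 for both), Nudt5 and Fkbp3 for Tfrc (0.994 for both) and Pld4 and Ssh3 for Slc11a1 (0.998 and 0.997). They were Ddhd1 and the complement gene C3 for Slc11a2, Arhgap19 and Aagab for Slc40a1 (0.999 for both), Tspan14 and Dgkz for Hmox1 (0.997 and 0.996) and Slfn1 for Lcn2 (0.999). Among the members themselves Ftl1, Slc40a1 and Hmox1 had r of 0.96 to 0.97 with each other, and Slc11a2 and Lcn2 had 0.98. Tfrc and Slc11a1, which are opposite between genotypes, had -0.90, and Fth1 and Ftl1 had -0.48.

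RefSeq promoter windows (GRCm38.p6, from 250 bases before to 50 after the start) were given for 5 members, Fth1, Ftl1, Tfrc, Slc11a1 and Lcn2. On either strand the NF-kappaB motif matched in Ftl1, 15 to 6 bases before the start, while 8.46% of all windows held it. It matched in none of the other members that had a window. The search took a fixed pattern, so a window without a match may hold another form of the site. The antioxidant response core TGACNNNGC was in none of these windows and in 12.4% of all windows.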

How the data were processed

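RNA-seq was analysed for 12 libraries in 4 groups, grouped by the labels. The authors made TruSeq stranded mRNA libraries and deposited 1 value per gene and library. The submitters' processing notes name bcl2fastq (2.20.0.422), cutadapt (1.18), TopHat2 (2.0.13), Cuffdiff (2.2.1) and mm10, while the methods name rat rn5. The gene symbols are those of mouse. The deposited values carry no unit and were read as FPKM, as Cuffdiff writes it. The sources used here do not give the library normalization, the annotation or the depth in reads.

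A gene entered the test if 3 or more libraries held 1 FPKM or more (10581 genes). The log2(FPKM + 1) values were fitted in limma (3.58.1, R 4.3.3) with a mean per group, a mean-variance trend and Benjamini-Hochberg adjustment over all genes tested, after checks on simulated data. Calls needed more than 2-fold, p under 0.05 and FDR under 0.1, the thresholds of the methods, in both directions. Fold changes on the log2(FPKM + 1) scale understate the change of low genes. Fragment numbers came from the FPKM of 1 fragment at transcript length minus 200 bases (263 to 303 values per library, of which 65.0% to 74.6% lay within 0.05 of a whole number) and are estimates.

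The members, the marker lists and the wider list were chosen with earlier results of these data known. Named were all members, up to 6 called genes of the wider list per comparison by size of difference, and the 2 genes most alike to each member, of which 1 is not reported here. The search for hairpins with an unpaired base was added after the plain search. Marker sums without the most abundant gene, and the markers named singly, were chosen after their values were seen. Alternatives were another added value, filter, scaling, sample set, threshold and spread model, a replicate block, each library left out, and, chosen after seeing the data, rescaling to a sum of 1000000.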

Additional observations from a re-analysis of the deposited data

Results flagged for a closer look

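The LPS response of Slc40a1 differed between genotypes by 1.61 (Pim1-/- minus WT, log2(FPKM + 1) scale, SE 0.07), by the limma test of the difference itself (adjusted p = 1.3e-10), and each of the 3 Pim1-/- libraries was above each of the 3 WT libraries after LPS and below them without it. The LPS response of Lcn2 differed by -2.00 (SE 0.08, limma adjusted p = 2.7e-11). Untreated Lcn2 rested on very few fragments, so the size and sign of this difference depend on the 1 FPKM added. No explanation of either was tested. Groups of 3 libraries were not searched for outlying values.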

How the results depend on the processing

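Across the alternatives, 759 of 791 values of the members' differences kept their sign and their side of the thresholds. Part of this count follows from the design. The filters, the replicate block, and a fit or left-out library that touches only other groups cannot change a difference, only its p. Leaving out each library in turn kept the number of members called at 2, 2, 4, 4 and 2 (untreated genotypes, LPS-treated genotypes, LPS in WT, LPS in Pim1-/-, difference of responses). In the first 4, libraries of the groups not compared cannot change the size of a difference. With an FDR under 0.05 and no fold threshold the numbers were 6, 6, 8 and 7 in the first 4, and on the sum of 1000000 1 for untreated genotypes. Quantile normalization called 6 members for LPS in WT and 5 in Pim1-/- cells, as did the sum of 1000000, and Ftl1 and Slc11a1 account for the added calls.

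Signs turned as follows. Quantile normalization gave 0.22 for Fth1 and 0.16 for Ftl1 between untreated genotypes, 0.034 for Ftl1 and 0.13 for Hmox1 between LPS-treated genotypes, -0.22 for Fth1 with LPS in Pim1-/- cells, and -0.13 for Ftl1, -0.079 for Tfrc and 0.17 for Hmox1 in the difference of responses. The sum of 1000000 gave 0.049 for Hmox1 untreated, 0.12 for Ftl1 and 0.10 for Hmox1 after LPS, -0.43 and -0.41 for Fth1 with LPS in WT and Pim1-/- cells, and 0.018 for Fth1 and 0.054 for Hmox1 in the difference. Median-ratio scaling gave 0.0028 for Hmox1 untreated and 0.0017 for Tfrc with LPS in Pim1-/- cells. Leaving out 1 library moved Hmox1 untreated over -0.0262 to 0.0253 (above 0 without untreated WT replicate 1 or Pim1-/- replicate 2), Tfrc with LPS in Pim1-/- cells over -0.0845 to 0.0919 (above 0 without untreated Pim1-/- replicate 1 or 2 or LPS-treated Pim1-/- replicate 3) and Slc11a2 in the difference over -0.0032 to 0.0738 (below 0 without LPS-treated Pim1-/- replicate 3). Apart from ranks under quantile normalization, the cause was not tested. The median of all genes moved to -0.17 in both LPS comparisons under quantile normalization and to -0.71 in WT, -0.62 in Pim1-/-, 0.13 between LPS-treated genotypes and 0.13 in the difference on the sum of 1000000. Calls over all genes for LPS in WT were 2130 higher and 1556 lower as deposited, 1671 and 1853 under quantile normalization and 1242 and 4199 on the sum of 1000000. In Pim1-/- cells they were 1546 and 1103, 1322 and 1353, and 1032 and 3201. Between LPS-treated genotypes they were 371 and 545, 343 and 370, and 611 and 377, and for the difference 237 and 469, 311 and 430, and 415 and 425.

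The labels do not say whether equal replicate numbers mark a pair of libraries. Same-numbered deviations correlated at -0.19 to 0.37 in 18 pairs, 7 of them over 0.1, over 5416 genes. A library matched its own number best in 19 of 36 checks, each among the 3 libraries of another group. With the replicate block the members called were 2, 2, 4, 4 and 2, and calls over all genes 824, 915, 3686, 2649 and 707, against 823, 916, 3686, 2649 and 706 without it. FPKM keeps no counts, so depth limits Lcn2 in untreated cells most.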
